A study of Mus musculus with 2 samples.

Results

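10 genes were followed across the leukocytes of brown adipose tissue (BAT): *Apoe*, *Apoc1*, *Apoc2*, *Abca1*, *Abcg1*, *Pltp*, *Nr1h3*, *Npc2*, *Soat1* and *Mylip*. They were taken as a fixed list of apolipoprotein and cholesterol efflux genes, by their symbols in the deposited gene tables. All 10 of the 32285 listed genes were found, and each had at least 1 UMI in both libraries. The UMI (unique molecular identifier) tags single captured transcripts, so that UMIs count molecules and not reads.

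The study compared sorted CD45+ BAT cells of 2 groups of male C57Bl/6 mice, both of the genotype AdipoQ-CreERT2 ATGLfl/fl and, by the labels, 16 weeks old. The study's own text gives its mice for this assay a younger age. Control mice received vehicle. AdipoΔ/Δ mice received tamoxifen (200 µL at 10 mg/ml every 2 days for 1 week, then 2 weeks of rest), which in this genotype deletes ATGL, the first triglyceride lipase of lipolysis, in cells with an active adiponectin promoter. That promoter is known to be active in mature adipocytes, so the sorted leukocytes were not its target. Tamoxifen and the deletion cannot be told apart with these groups, and each condition was 1 library with no stated number of mice. No value therefore carries an error between mice, no test was made, and the intervals given in parentheses are exact 95% intervals that cover counting error only.

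After quality filters, 2279 control cells with 10753113 UMIs and 2016 AdipoΔ/Δ cells with 11316418 UMIs remained, with a median depth of 3678 and 3942 UMIs per cell. The libraries shared 4 cell barcodes. *Pnpla2*, which encodes ATGL, stood at 37.1 CPM in control and 42.2 CPM in AdipoΔ/Δ leukocytes, which were not the target of the deletion. CPM is the UMIs of a gene summed over a group of cells, scaled to 1000000 UMIs of those cells. The 18 clusters were named from marker genes, and the names used here stand for likeness to those markers. The macrophage clusters held 114 control (5.00%) and 397 AdipoΔ/Δ cells (19.7%), and 4.60% and 29.7% of all UMIs. In 6 other filterings and clusterings of the cells they held 163 to 203 control and 440 to 641 AdipoΔ/Δ cells. Their 3 subsets were M2-like (51 and 117 cells), matrix (51 and 176 cells) and lipid-associated (12 and 104 cells), and control lipid-associated values rest on 12 cells with a median of 1321 UMIs against 11149.5 in AdipoΔ/Δ. The matrix cluster was named from its subset list (score 3.30, the mean of the markers' levels scaled over clusters), with 7 macrophage markers detected in at least 10% of its cells. Its score on the macrophage list was 0.0870, below that on the list of innate lymphoid cells (ILC2, 0.597), and none of its 10 leading genes, *Retnla* and *Fn1* first, was on the macrophage list. The 10 macrophage markers summed to 1353 and 1376 CPM in it, against 13448 and 16022 CPM in M2-like cells and 1436 and 2162 CPM in the Ly6C low monocytes led by *Plac8* and *Gngt2*. Some values of all macrophages are therefore also given without it, and the others include it. Monocytes held 719 and 458 cells, of which 379 and 182 were Ly6C high and 340 and 276 Ly6C low. Among the latter, the cluster led by *Plac8* and *Gngt2* (96 and 59 cells) scored 1.81 on the Ly6C low list, against 3.07 for that led by *Cybb* and *Cebpb*. *Plac8*, its first leading gene, was on the Ly6C high list, and its leading genes *Gngt2* and *Nr4a1* were on the Ly6C low list. The study also describes Ly6C intermediate monocytes, a class that was not named here. A cluster led by *Cd74* and *H2-Aa* (79 and 193 cells) scored for macrophage markers but was left unnamed, since no macrophage marker was among its 10 leading genes and its AdipoΔ/Δ cells had a median of 1050 UMIs. The CD45+ sort should leave out adipocytes, fibroblasts and endothelial cells. Of 9 adipocyte transcripts, 7 in control and 8 in AdipoΔ/Δ had a UMI, at 5.39 and 6.72 CPM in sum, and the receptor gene *Adrb3* was at 0 in both. The 6 fibroblast transcripts summed to 9.21 and 32.3 CPM, and 5 endothelial ones to 19.3 and 17.2 CPM.

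Cells that take up lipoproteins or dying cells free cholesterol in lysosomes, where NPC2 hands it on for exit. Cholesterol is then either esterified by SOAT1 for storage in droplets or exported. The transporter ABCA1 exports it onto lipid-poor acceptors such as apolipoprotein E, and ABCG1 to mature high-density lipoprotein. Macrophages are known for this efflux, and the nuclear receptor LXRα (*Nr1h3*), which senses oxysterols, is known to switch on *Abca1*, *Abcg1*, *Apoe*, *Apoc1*, *Apoc2*, *Pltp*, *Mylip* and *Nr1h3* itself in them.

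3 of the genes lie side by side. On the GRCm38 annotation, *Apoe* (ENSMUSG00000002985) spans 19696109 to 19699188 on the minus strand of chromosome 7, *Apoc1* (ENSMUSG00000040564) 19689481 to 19692660 and *Apoc2* (ENSMUSG00000002992) 19671579 to 19677941, with *Apoc4* between the last pair. *Apoc2* overlaps the gene model *Gm44805* on the same strand, so reads there cannot be assigned with certainty. The 2 promoters printed below are those of *Apoe* and *Apoc2*, neighbours that had their highest levels in different cell classes. They run from 250 bases before to 50 after the start, 5′ to 3′, and come from RefSeq on GRCm38.p6. Capitals mark the letters AGGTCA, a nuclear receptor motif (both strands were searched), 2 of which with 4 bases between form the response element of LXR.
Apoe promoter, chr7:19699139-19699438, minus strand: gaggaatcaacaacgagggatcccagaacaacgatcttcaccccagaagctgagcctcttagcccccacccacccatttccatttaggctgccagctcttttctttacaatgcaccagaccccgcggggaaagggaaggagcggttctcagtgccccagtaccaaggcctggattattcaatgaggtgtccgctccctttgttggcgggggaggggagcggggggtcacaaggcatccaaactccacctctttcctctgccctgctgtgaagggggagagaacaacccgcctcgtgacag
Apoc2 promoter, chr7:19677892-19678191, minus strand: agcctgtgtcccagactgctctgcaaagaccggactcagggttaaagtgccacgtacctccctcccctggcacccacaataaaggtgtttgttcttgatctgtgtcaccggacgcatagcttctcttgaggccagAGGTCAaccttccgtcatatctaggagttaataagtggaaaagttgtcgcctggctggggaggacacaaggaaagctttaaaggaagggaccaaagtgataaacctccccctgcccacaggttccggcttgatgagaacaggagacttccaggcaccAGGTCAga
The *Apoc2* promoter held 2 such motifs, 115 bases before and 42 after the start, and the *Apoe* promoter held none. Promoters were given for 8 of the 10 genes (not for *Apoc1* and *Abcg1*), and *Apoc2* was the only one of the 8 with the motif. Over all 32851 mouse promoters of this table, 16.3% held it. The whole element, allowing 1 mismatch, was found in 0.25% of all promoters and in none of the 8. An element with more mismatches would be missed, so the search cannot show that a window lacks an LXR element. Such matches describe these windows only.

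Among the apolipoproteins, *Apoe* was the one carried by macrophages, and it split their subsets. ApoE binds lipoprotein receptors and accepts effluxed cholesterol. In the M2-like subset *Apoe* stood at 5641 CPM (5305 to 5994) in control and 6155 CPM (5976 to 6338) in AdipoΔ/Δ. Matrix macrophages held 299 CPM (239 to 370) and 101 CPM (84.2 to 119). Lipid-associated macrophages held 3286 CPM (2652 to 4026) in control, from 93 UMIs, and 1516 CPM (1449 to 1584) in AdipoΔ/Δ. M2-like cells exceeded matrix cells 18.9-fold (15.1 to 23.8) in control and 61.2-fold (51.6 to 73.3) in AdipoΔ/Δ, in the same order in both libraries. The same split showed in single cells. *Apoe* was detected in 94.1% of control and 95.7% of AdipoΔ/Δ M2-like cells, against 15.7% and 31.2% of matrix cells. With every cell thinned to 1000 UMIs, which removes the difference in depth, the shares were 85.4% and 90.0% for M2-like and 7.84% and 8.93% for matrix cells. T cells, which should lack *Apoe*, had a UMI in 4.06% of control and 14.9% of AdipoΔ/Δ cells (2.78% and 4.72% thinned) at median depths of 3839 and 4970.5 UMIs, against 3835 and 5866 in matrix cells. Matrix cells, at 7.84% and 8.93% after thinning, lay above the T cell shares, but the counting intervals of the thinned shares overlapped. In CPM, matrix cells held 299 and 101, against 8.92 and 39.1 in T cells. In control, 6 of the 51 matrix cells held 97.6% of the subset's *Apoe* UMIs.

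Monocytes also carried *Apoe*. Ly6C high monocytes held 974 CPM (937 to 1013) in control and 1421 CPM (1356 to 1489) in AdipoΔ/Δ, and Ly6C low monocytes 1167 CPM (1107 to 1229) and 1308 CPM (1229 to 1390). Its UMIs were concentrated in part of the cells. The 10% of Ly6C high cells with the most *Apoe* UMIs held 56.0% of them in control and 67.0% in AdipoΔ/Δ. The median Ly6C high cell had 2.71 and 3.13 *Apoe* UMIs per 10000, against 33.3 and 49.6 in the median M2-like cell. B cells held 234 CPM (196 to 277) and 254 CPM (194 to 326), far above T cells at 8.92 and 39.1 CPM and NK cells at 10.5 and 37.0 CPM.

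The C apolipoproteins had another pattern. *Apoc2*, whose product activates lipoprotein lipase, was a monocyte transcript. It stood at 534 CPM (494 to 576) in control and 618 CPM (564 to 675) in AdipoΔ/Δ Ly6C low monocytes, and at 236 CPM (217 to 255) and 164 CPM (143 to 188) in Ly6C high monocytes. Ly6C low exceeded Ly6C high monocytes 2.26-fold (2.03 to 2.53) and 3.76-fold (3.19 to 4.45). Within the Ly6C low cells, the cluster led by *Cybb* and *Cebpb* held more *Apoc2* (691 and 734 CPM) than the one led by *Plac8* and *Gngt2* (335 and 362 CPM). Macrophages held only 20.2 CPM (9.70 to 37.2) and 19.3 CPM (14.9 to 24.7), and of the 65 AdipoΔ/Δ macrophage UMIs, 52 came from lipid-associated cells. The control value depends on where macrophages end. With the *Cd74* cluster counted among them, the ratio of AdipoΔ/Δ to control macrophages went from 0.956 to 0.245, and that of control macrophages to other cells from 0.147 to 0.782. Monocytes contained 89.4% of all *Apoc2* UMIs in control and 83.3% in AdipoΔ/Δ, and lymphocytes 4 and 6 UMIs in all. *Apoc1*, an inhibitor of lipoprotein lipase and of receptor binding, was sparse and also monocytic. Of its 124 control UMIs 98 were in Ly6C high monocytes (37.3 CPM, 30.3 to 45.5), and of its 28 AdipoΔ/Δ UMIs 18 were (14.2 CPM, 8.42 to 22.5). Control macrophages had 0 *Apoc1* UMIs, which allows up to 6.07 CPM, and AdipoΔ/Δ macrophages had 3. *Apoe* peaked in M2-like macrophages, *Apoc2* in Ly6C low and *Apoc1* in Ly6C high monocytes of both libraries.

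**Figure D1:**
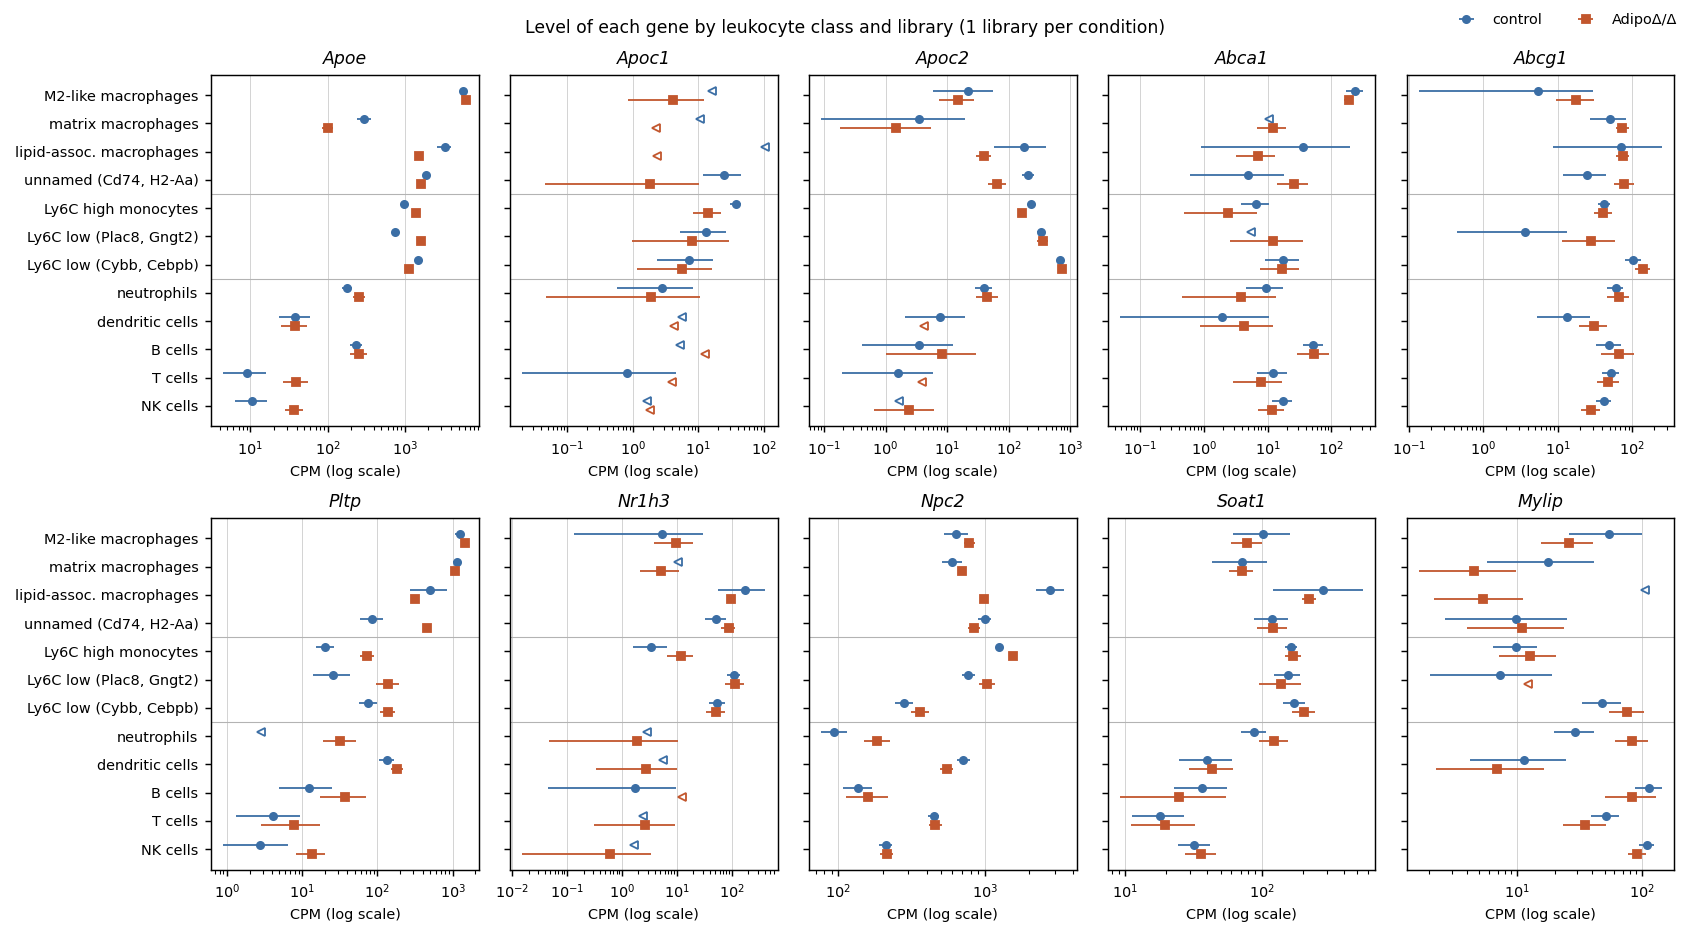
Level of each gene (CPM, log axis) in 12 clusters or classes, control as blue circles and AdipoΔ/Δ as orange squares, with exact 95% counting intervals. Open triangles stand at the limit that a count of 0 allows (3 UMIs). *Apoe* is highest in M2-like macrophages (5641 and 6155 CPM), *Apoc2* in Ly6C low monocytes led by *Cybb* and *Cebpb* (691 and 734 CPM).

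The 2 export pumps differed in M2-like macrophages, where *Abca1* was high and *Abcg1* low. *Abca1*, which loads lipid-poor apolipoproteins, was highest in M2-like macrophages. These cells held 238 CPM (173 to 319, 44 UMIs) in control and 189 CPM (159 to 223, 138 UMIs) in AdipoΔ/Δ. Matrix macrophages had 0 UMIs in control, which allows up to 10.7 CPM, and 16 UMIs (6.86 to 19.5 CPM) in AdipoΔ/Δ, and lipid-associated cells had 1 and 9 UMIs. Monocytes held 7.52 and 7.31 CPM, below lymphocytes at 21.0 CPM (16.6 to 26.3) and 14.3 CPM (10.1 to 19.6), among which B cells stood at 52.4 and 54.1 CPM. *Abcg1*, which exports cholesterol to mature high-density lipoprotein, was spread over nearly every class. It was low in M2-like cells, with 1 and 13 UMIs (5.40 and 17.8 CPM), against 49.9 and 74.3 CPM in matrix cells. Other cells held both, and an unnamed cluster led by *Malat1* and *Neat1*, next to M2-like cells in *Abca1* (65.2 and 88.0 CPM), had 65.2 and 114 CPM of *Abcg1*. That cluster was shallow, with 42 and 74 cells at a median of 667.5 and 1081 UMIs. Its control cells held 46031 UMIs in all, and its AdipoΔ/Δ cells held 298 UMIs of the 6 fibroblast transcripts (2624 CPM). In AdipoΔ/Δ, M2-like cells held 0.240 times the *Abcg1* level of matrix cells (0.123 to 0.429). The cluster of Ly6C low monocytes led by *Cybb* and *Cebpb* held the most, 104 CPM (81.0 to 131) and 139 CPM (109 to 174).

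*Pltp*, encoding the phospholipid transfer protein that remodels high-density lipoprotein, had the highest ratio of macrophages to other cells among the 10 genes. It was 46.3-fold (39.9 to 54.0) higher in macrophages than in all other cells of the control library and 8.55-fold (7.90 to 9.26) higher in AdipoΔ/Δ. With a mitochondrial limit of 5% on barcodes the control ratio was 25.8, and without the matrix cells the AdipoΔ/Δ ratio was 7.21. Both M2-like (1242 and 1440 CPM) and matrix macrophages (1143 and 1063 CPM) held it, with ratios of 1.09 (0.913 to 1.29) and 1.36 (1.25 to 1.47) between them, and it was lower in lipid-associated cells (495 and 321 CPM). In AdipoΔ/Δ the lipid-associated level was 0.302 times the matrix level (0.270 to 0.337). *Pltp* was seen in 70.6% of control and 94.0% of AdipoΔ/Δ M2-like cells, and in 45.8% (31.4 to 60.8) and 70.9% (61.5 to 79.2) after thinning. T cells, taken as a background class, had 1.85% and 4.48% (0.397% and 0.787% thinned). Dendritic cells held 133 and 183 CPM. *Ctsa* overlaps *Pltp* on the opposite strand.

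*Nr1h3* had its highest levels in lipid-associated macrophages, Ly6C low monocytes and the unnamed cluster led by *Cd74* and *H2-Aa*, which held 51.7 CPM (32.0 to 79.1) in control and 87.6 CPM (64.6 to 116) in AdipoΔ/Δ. In AdipoΔ/Δ it reached 97.1 CPM (80.9 to 116, 126 UMIs) in lipid-associated cells, against 9.59 CPM in M2-like and 5.25 CPM in matrix cells, which had 7 UMIs each. Lipid-associated cells exceeded matrix cells 18.5-fold (8.72 to 47.0). In control the 3 subsets had 5, 1 and 0 UMIs. Ly6C low monocytes held 78.2 CPM (63.3 to 95.5) and 71.2 CPM (53.8 to 92.4), against 3.43 and 11.8 CPM in Ly6C high monocytes. The ratio was 22.8 (11.5 to 51.4) in control and 6.01 (3.35 to 11.4) in AdipoΔ/Δ. Within the Ly6C low cells, *Nr1h3* was higher in the cluster led by *Plac8* and *Gngt2* (109 and 114 CPM). The one led by *Cybb* and *Cebpb* held 54.0 and 51.7 CPM. Lymphocytes had 1 and 3 *Nr1h3* UMIs. *Nr1h3* overlaps *Gm13783* on the same strand.

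*Npc2*, the lysosomal carrier, was found in every class. It was low in neutrophils (93.8 and 184 CPM) and B cells (136 and 158 CPM). Macrophages held 736 and 824 CPM. Their lipid-associated subset held 2792 CPM in control, from 79 UMIs in 12 cells, and 983 CPM in AdipoΔ/Δ. In Ly6C high monocytes *Npc2* stood at 1254 CPM (1212 to 1298) and 1555 CPM (1487 to 1625). The Ly6C low level was 0.397 times (0.363 to 0.433) and 0.367 times (0.331 to 0.407) as high. Of its clusters, the one led by *Plac8* and *Gngt2* held 770 and 1030 CPM, and the one led by *Cybb* and *Cebpb* 282 and 362 CPM. T cells held 447 and 459 CPM. *Soat1*, which esterifies cholesterol, stood at 164 and 169 CPM in Ly6C high and 165 and 183 CPM in Ly6C low monocytes, a ratio of 1.01 (0.847 to 1.19) and 1.08 (0.871 to 1.34), and was lower in lymphocytes (28.0 and 30.1 CPM). In AdipoΔ/Δ macrophages its level was 3.13-fold (2.47 to 3.99) higher in lipid-associated (223 CPM) than in matrix cells (71.3 CPM). *Mylip*, whose product IDOL marks the LDL receptor for degradation, had most of its UMIs in lymphocytes. NK cells held 109 CPM (93.9 to 125) and 91.5 CPM (77.5 to 107), B cells 113 and 83.2 CPM and T cells 51.1 and 35.2 CPM. Lymphocytes together held 67.2% of its control and 54.2% of its AdipoΔ/Δ UMIs, against 33.6% and 23.5% of all UMIs. Neutrophils held 29.1 and 83.4 CPM, and the Ly6C low monocytes led by *Cybb* and *Cebpb* 48.2 and 75.8 CPM.

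Counted over the list, 3 of 10 members (*Apoe*, *Abca1* and *Pltp*) were at least 2-fold higher in macrophages than in all other cells of the control library, where 11.8% of all 10813 genes with at least 20 UMIs were. In AdipoΔ/Δ the same 3 and *Nr1h3* made 4 of 10, against 9.53% of 11148 genes. Without the matrix cells the counts were 4 and 5, but the shares of all genes were not recomputed for that setting. The control ratio there went from 7.41 to 17.2 for *Abca1* and from 4.85 to 10.5 for *Apoe*. Against lymphocytes, 7 of 10 members were at least 2-fold higher in monocytes in each library, where 17.3% of control and 16.3% of AdipoΔ/Δ genes were. The median log2 ratio of monocytes over lymphocytes was 2.64 and 2.53 for the members, and -0.16 and -0.19 for all genes. Between macrophage subsets, M2-like over matrix cells gave 2 of 5 members past 2-fold in control and 3 of 7 in AdipoΔ/Δ, where 13.7% and 13% of genes were. Lipid-associated over matrix cells gave 3 of 4 and 4 of 8, where 14.3% and 11% were. Ly6C low over Ly6C high monocytes gave 4 of 10 and 4 of 9, where 8.95% and 11% were. The clusters were built without the 10 genes and 59 related ones as features, but cells of a cluster share many other genes, and no test was made of these counts.

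**Figure D2:**
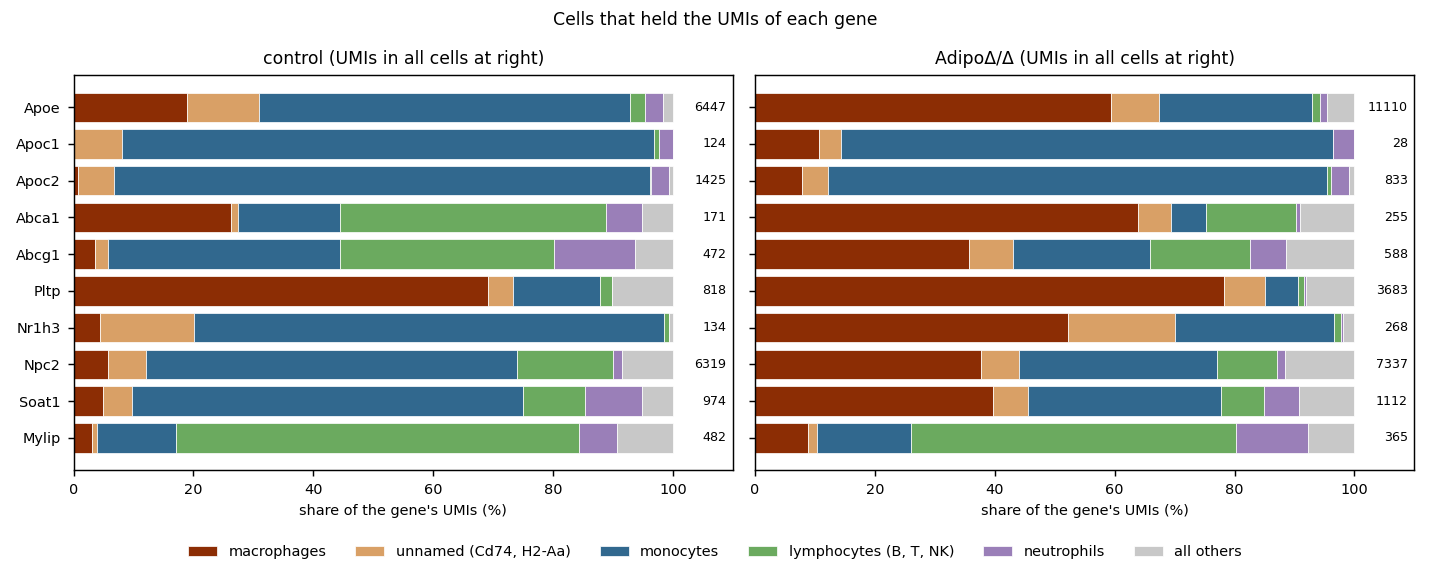
Share of each gene's UMIs (%, horizontal) held by 6 groups of cells in control (left) and AdipoΔ/Δ (right), with the gene's UMIs over all cells printed at the right of each bar. Macrophages held 19.0% of *Apoe* UMIs in control and 59.3% in AdipoΔ/Δ, and monocytes held most *Apoc2* UMIs in both (89.4% and 83.3%).

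Macrophages held a larger share of these transcripts in AdipoΔ/Δ than in control. For *Apoe*, monocytes held 61.9% (60.7 to 63.1) of 6447 control UMIs and 25.5% (24.7 to 26.3) of 11110 AdipoΔ/Δ UMIs, and macrophages 19.0% (18.0 to 19.9) and 59.3% (58.4 to 60.2). For *Nr1h3*, monocytes held 78.4% of 134 and 26.5% of 268 UMIs, and macrophages 4.48% and 52.2%, nearly all of the latter in lipid-associated cells. *Abca1* went from 26.3% to 63.9% and *Npc2* from 5.76% to 37.7% of UMIs in macrophages. Over all genes, the macrophage share of UMIs went from 4.60% to 29.7%. Over all cells, *Pltp* was 4.28-fold (3.97 to 4.62), *Nr1h3* 1.90-fold (1.54 to 2.36) and *Apoe* 1.64-fold (1.59 to 1.69) higher in AdipoΔ/Δ. *Apoc1* was at 0.215 times (0.137 to 0.325) and *Apoc2* at 0.555 times (0.509 to 0.605) its control level. These are 3 members at least 1.5-fold higher and 2 lower, where 16.5% of 12080 genes were higher and 6.08% lower. In pooled cells, fewer cells of a type and less RNA per cell cannot be told apart, and levels within macrophages and monocytes are given below.

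Within macrophages, fewer members were higher. *Apoe* was lower in AdipoΔ/Δ (2472 against 1962 CPM, ratio 0.794, 0.746 to 0.844), as was *Pltp* (1143 against 858 CPM, ratio 0.751, 0.686 to 0.823). Neither was lower in M2-like cells, where the ratios were 1.09 (1.02 to 1.17) for *Apoe* and 1.16 (1.00 to 1.34) for *Pltp*. In these cells 0 of 6 members were past 1.5-fold upward and 1, *Mylip*, downward, against 24.2% and 10.3% of genes. *Apoe* was lower in matrix cells (0.336, 0.254 to 0.447) and lipid-associated cells (0.461, 0.375 to 0.574), the latter from 12 control cells. *Apoe* was lower in all 18 alternative settings, but *Pltp* was lower in only 9 of 18, and 1.26 times the control level with a higher minimum of detected genes per cell. Past 1.5-fold were *Nr1h3* (6 against 140 UMIs, 12.1 and 41.7 CPM, ratio 3.43, 1.54 to 9.51) and *Abcg1* (34.4 and 62.5 CPM, ratio 1.82, 1.11 to 3.18) upward, and *Abca1* (91.0 and 48.5 CPM, ratio 0.533, 0.381 to 0.759) and *Mylip* (30.3 and 9.52 CPM, ratio 0.314, 0.165 to 0.624) downward. That is 2 of 9 tested members higher and 2 lower, against 21.9% and 12.6% of 8769 genes, so that the members' share of 22.2% was near the background for higher genes and rested on 2 genes for lower ones. *Apoc1* had too few UMIs. The makeup of the class moved several of these ratios. Weighted to the same subset shares in both libraries, *Nr1h3* turned to 0.611, with 5, 1 and 0 control UMIs behind it, *Npc2* went from 1.12 to 0.598, and 0 members were higher and 4 lower. This weighting gave 34.4% to the lipid-associated subset, which in control held 12 cells and 28300 UMIs, 79 of them *Npc2*. Without the lipid-associated cells, 1 was higher and 1 lower. Without the matrix cells, 2 were higher and 4 lower, with *Apoe* at 0.598, *Pltp* at 0.633, *Abca1* at 0.344 and *Abcg1* at 3.90. The share of all genes past 1.5-fold was not computed for the weighted class or without a subset. These counts therefore have no background to be read against. *Abca1* and *Mylip* stayed below 1 in every setting, at up to 0.886 (resolution 2) and 0.495 (mitochondrial limit of 5%). Adipocyte transcripts were higher in control M2-like cells (27 UMIs, 146 CPM, 6 of 9 genes) than in AdipoΔ/Δ ones (39 UMIs, 53.4 CPM, 6 of 9), and their part in the *Apoe* level, a gene that adipocytes express too, was not tested.

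In monocytes *Pltp* was higher in AdipoΔ/Δ. It was at 30.9 CPM (25.6 to 36.9) in control and 98.4 CPM (85.3 to 113) in AdipoΔ/Δ, a ratio of 3.19 (2.53 to 4.03), and the same direction held in Ly6C high (20.2 and 73.4 CPM) and Ly6C low cells (53.8 and 139 CPM). Thinned to 1000 UMIs per cell, the ratio was 1.94, and that of *Apoc1* below was 0.144. *Mylip* was higher too (16.3 and 27.8 CPM, ratio 1.70, 1.17 to 2.47) and *Apoc1* lower (28.5 and 11.2 CPM, ratio 0.393, 0.239 to 0.619). These are 2 of 10 members higher and 1 lower, against 10.9% and 4.41% of 8933 genes. *Apoe* was 1.33-fold (1.27 to 1.40) higher, with ratios of 1.46 (1.37 to 1.55) in Ly6C high and 1.12 (1.03 to 1.22) in Ly6C low cells. The 2 clusters of the latter went opposite ways, 2.18 (1.90 to 2.51) in the one led by *Plac8* and *Gngt2* and 0.773 (0.698 to 0.854) in the one led by *Cybb* and *Cebpb*. *Apoc2* was level (1.02, 0.931 to 1.12), the sum of a lower value in Ly6C high (0.697, 0.593 to 0.817) and a higher one in Ly6C low cells (1.16, 1.03 to 1.30). *Nr1h3* (1.27, 0.926 to 1.73), *Soat1* (1.06, 0.927 to 1.21) and *Abca1* (0.971, 0.484 to 1.87) had intervals that included 1. Transcripts of the macrophage complement genes *C1qa*, *C1qb* and *C1qc* were higher beside them. They summed to 18.9 CPM in control and 239 CPM in AdipoΔ/Δ monocytes, to 6.92 and 41.8 CPM in lymphocytes, and to 4358 and 4423 CPM in macrophages. Per 100 C1q UMIs, *Pltp* had 163 and 41.1 UMIs in monocytes, 26.2 and 19.4 in macrophages and 68.0 and 33.3 in lymphocytes, and the part of free macrophage RNA in the monocyte *Pltp* level was not tested. *Apoe* had 5467 and 576 UMIs per 100 C1q UMIs in monocytes and 56.7 and 44.3 in macrophages. It had 3350 and 610 in B cells, 110 and 107 in T cells and 173 and 83.6 in NK cells, and the part of free macrophage RNA in these levels was not tested either.

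**Figure D3:**
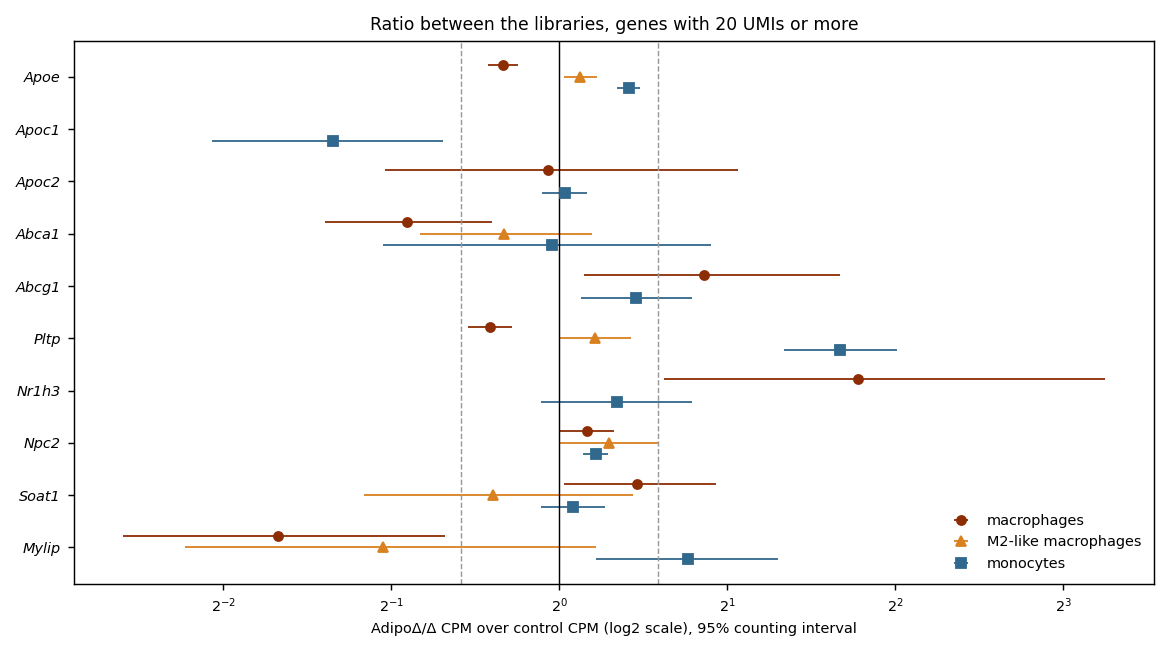
Ratio of AdipoΔ/Δ over control CPM (log2 axis) for macrophages (brown circles), M2-like macrophages (orange triangles) and monocytes (blue squares), with 95% counting intervals, for genes with 20 UMIs or more. Dashed lines stand at 1.5-fold either way. *Pltp* is past the upper line in monocytes (3.19) and below 1 in macrophages (0.751), and *Mylip* lies on opposite sides (1.70 and 0.314).

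Among other cells, neutrophils had 0 *Pltp* UMIs in control, which allows up to 2.81 CPM, and 17 UMIs (32.2 CPM, 18.8 to 51.6) in AdipoΔ/Δ, with C1q at 49.7 and 129 CPM in these cells. Their *Mylip* level was 29.1 CPM (19.8 to 41.3) and 83.4 CPM (60.6 to 112), and their *Npc2* level was 1.96-fold (1.47 to 2.62) higher, so that 2 of 6 tested members were past 1.5-fold upward and 0 downward, where 27.3% and 5.28% of neutrophil genes were. The unnamed cluster led by *Cd74* and *H2-Aa* held much *Apoe* (1895 and 1633 CPM). Its *Pltp* was 83.8 CPM (58.0 to 117) in control and 453 CPM (398 to 512) in AdipoΔ/Δ, and its *Apoc2* 209 CPM (167 to 259) and 65.7 CPM (46.0 to 90.9). Its C1q genes were higher in AdipoΔ/Δ beside *Pltp* (*C1qa* at 93.6 and 1075 CPM), and the part of macrophage RNA in these values was not tested.

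**Figure D4:**
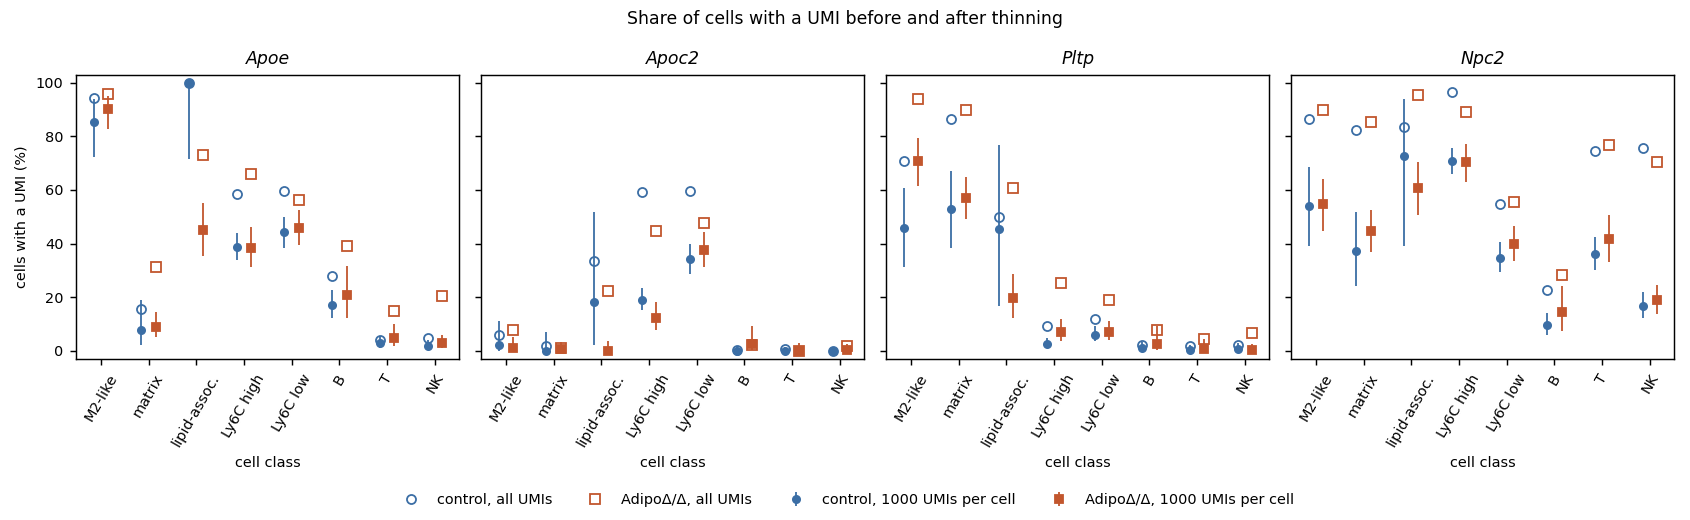
Share of cells with at least 1 UMI (%) of *Apoe*, *Apoc2*, *Pltp* and *Npc2* in 8 classes, open symbols for all UMIs and filled ones after thinning each cell to 1000 UMIs, with Clopper-Pearson 95% intervals. Thinning lowers the *Apoe* share of AdipoΔ/Δ T cells from 14.9% to 4.72% and leaves M2-like cells at 90.0%.

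M2-like cells held more of the members at once than matrix cells or lymphocytes. After thinning, the median M2-like cell had 2 of the 10 genes in control and 2.5 in AdipoΔ/Δ, the median lipid-associated cell 2 and 1, the median monocyte 1 and 2, the median matrix cell 1 in both and the median lymphocyte 0 in both. At least 3 members were seen in 35.4% of 48 control and 50% of 110 AdipoΔ/Δ M2-like cells, in 45.5% of 11 and 21.6% of 102 lipid-associated cells, in 17.3% of 666 and 17.5% of 401 monocytes, in 9.80% of 51 and 7.74% of 168 matrix cells, and in 0.421% of 713 and 1.44% of 417 lymphocytes.

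The related genes, 59 in 8 lists, were read the same way. In macrophages 40 had enough UMIs, of which 12 were at least 1.5-fold higher and 8 lower in AdipoΔ/Δ (30% and 20%, against 21.9% and 12.6% of all genes tested), with a median log2 ratio of 0.17 against 0.10 for all genes. Lipid-associated cells were 12 of 114 macrophages in control and 104 of 397 in AdipoΔ/Δ. The macrophage ratios below are for the class as a whole, and the part of its makeup in them was not tested. The list of esterification and ester hydrolysis had 2 of 3 higher, namely *Plin2* (droplet coat, 123 and 730 CPM, 5.91-fold, 4.59 to 7.76), itself a naming marker of the lipid-associated subset, and *Nceh1* (cholesteryl ester hydrolase, 2.48-fold, 1.58 to 4.11), and *Lipe*, the hormone-sensitive lipase, lower (0.392, 0.197 to 0.836). Of 9 endosomal exit and transfer genes 3 were higher, led by *Lipa*, the lysosomal acid lipase (231 and 460 CPM, 2.00-fold, 1.65 to 2.44), and *Stard3* (1.56, 0.816 to 3.35), and 1 was lower, *Gramd1a* (0.515, 0.291 to 0.962). Of 7 lipoprotein receptor genes 3 were higher, among them *Sorl1* (1.73, 0.842 to 4.12), and *Sort1* was lower (0.343, 0.183 to 0.677). Of 9 LXR target genes outside the members 2 were higher, *Tgm2* (2 against 68 UMIs) and *Lpcat3* (1.59, 0.858 to 3.27), and *Scd1* was lower (0.596, 0.362 to 1.03). The nuclear receptor list had *Pparg* higher (5 against 135 UMIs, 3.97, 1.66 to 12.4), *Ppard* lower (0.662, 0.268 to 1.96) and 3 of 5 within the limits. Of 4 other transporter and oxysterol genes 3 were lower, with *Abca2* (0.610, 0.261 to 1.65) and *Abca9* (0.614, 0.458 to 0.835) the farthest, and 0 were higher. *Lpl*, the lipoprotein lipase that ApoC2 activates and the 1 plasma remodelling gene tested, went from 1347 to 3273 CPM (2.43-fold, 2.25 to 2.63). Of 10 other apolipoprotein genes only *Apobr* and *Apobec1*, a receptor and an editing enzyme, had enough UMIs, and both were within the limits. In monocytes 39 of the 59 were tested, with 5 higher and 1 lower (12.8% and 2.56%, against 10.9% and 4.41% of all genes tested), *Lpl* again among the former (61.5 and 363 CPM, 5.91-fold, 5.10 to 6.87). The C1q genes summed to 18.9 and 239 CPM in monocytes, and the part of free macrophage RNA in their *Lpl* level was not tested.

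By likeness of pattern, measured as Pearson's r of log2(CPM + 10) over the 32 sums of a cluster in a library with at least 30 cells, 7899 genes were compared with each member. The points share libraries and cells, and the values are descriptions. Nearest to *Apoe* were *Csf1r* (r = 0.90) and *Ctsb* (0.89), to *Apoc2* *Gngt2* (0.94) and *Cdc42ep2* (0.93), and to *Apoc1* *Rbks* and *Prtn3* (both 0.86). *Pltp* was nearest to *Slamf9* and *Sdc3* (both 0.94), *Abca1* to *Man1a* and *Lyve1* (both 0.81), and *Nr1h3* to *Fam20c* (0.82) and *Bcl2a1a* (0.81). For *Soat1* these were *Wsb1* (0.90) and *Atp6v0b* (0.89), for *Npc2* *Rgs10* (0.82) and *Gltp* (0.77), for *Mylip* *Ripor2* (0.81) and *Jade2* (0.80), and for *Abcg1* *Ubr4* (0.68) and *Ago2* (0.60), the weakest of the 10. Among the members themselves, *Apoc2* and *Soat1* were most alike (0.76).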

How the data were processed

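The authors sorted live CD45+ BAT cells, made 1 library per condition with the 10x Genomics 3′ kit (v3.1) and deposited raw UMI counts per gene and barcode, made with Cell Ranger (4.0.0 in the file headers) on mm10. No normalization had been applied to the deposited counts. Barcodes were kept from 200 detected genes upward and up to 10% of UMIs from mitochondrial genes, since under 50% of AdipoΔ/Δ barcodes (37.7%) pass the 2% of the study's methods. Cells were integrated and clustered in Seurat 5.3.0 (SCTransform, 20 components, resolution 1, 1952 features without the 10 members and 59 related genes). A name needed a score of at least 0.5 on a class or macrophage subset list and 3 markers in at least 10% of cells, thresholds set after seeing the data. Clusters were left unnamed where the 10 leading genes went against the name. Sums of UMIs were given as CPM with Poisson intervals, shares with Clopper-Pearson intervals and ratios with conditional binomial intervals (SciPy 1.17.1), at 95%. Comparisons needed 20 UMIs, and folds of 2 (classes) and 1.5 (libraries) took the place of a test. The ratio intervals were tested on simulated data. Limits for a count of 0 use 3 UMIs. Doublet calls (Scrublet, Scanpy 1.11.5) were few, 8 per library (0.351% and 0.397%), and were not removed. Named beside the members were, per list of related genes, up to 2 past 1.5-fold on each side, the 2 genes most like each member, leading and marker genes of clusters, *Pnpla2* and the C1q genes. 1 related gene that this rule names is not reported here. *Apobr* and *Apobec1*, outside this rule, were named after their values were seen. The members and lists were chosen with earlier results of these data known.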

Additional observations from a re-analysis of the deposited data

Results flagged for a closer look

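The 365 AdipoΔ/Δ barcodes left out by the filters, which enter no comparison above, carried 2541 CPM of *Apoe*, 602 CPM of *Pltp*, 414 CPM of *Npc2* and 98.3 CPM of *Abca1*. The 318 control barcodes left out carried 455, 90.6, 138 and 31.4 CPM. These barcodes failed on detected genes or on mitochondrial UMIs and have no cell class, so the makeup behind the values was not tested.

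*Mylip* went in opposite directions in the 2 myeloid classes, with a ratio of AdipoΔ/Δ over control of 0.314 in macrophages and 1.70 in monocytes. The difference between these ratios was not tested, since each rests on 1 library per condition.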

How the results depend on the processing

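No paired analysis was possible because each condition was 1 library and no result comes from a test. The counts of members past a fold were recomputed under the alternatives. Of the recomputed counts, 87 were within 1.5 times the reported ones and 9 were not. The share of all genes past a fold was not recomputed, so these counts have no background in their own setting. The count higher in AdipoΔ/Δ macrophages was 1 with the mean of per-cell CPM, 1 with cells thinned to 1000 UMIs, 0 when weighted to the subset shares of both libraries and 1 without lipid-associated cells. The count lower there was 1 thinned, 4 weighted, 1 without lipid-associated cells and 4 without matrix cells. The count higher in monocytes was 4 with the mean of per-cell CPM. For single members 429 values moved little, 183 moved and 3 reversed. The reversed ones were *Apoc1* in control macrophages over other cells (1.16 with a mitochondrial limit of 5%), *Nr1h3* in macrophages between libraries (0.611 weighted) and *Nr1h3* in AdipoΔ/Δ macrophages over other cells (0.422 without lipid-associated cells). Weighting and leaving out a subset change the makeup by construction, and for the other settings the cause was not tested. The ratio of *Abca1* in control macrophages to other cells was 3.21 to 17.2. Leaving out lipid-associated or matrix cells, counting the *Cd74* cluster as macrophages and keeping only cells of 1000 UMIs were chosen after seeing the data. Leaving out macrophages of no subset changed nothing, since no named macrophage cluster lacked one. With 1 library per condition, depth limits *Apoc1*, *Nr1h3* and *Apoc2* in macrophages most, where control had 0, 6 and 10 UMIs.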
